A study of Rattus norvegicus with 24 samples.

Results

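The 300 most abundant transcripts of rat liver on day 1 were chosen as the brightest rows of sham liver and followed into burned liver. Values were taken as log2(max(signal, 0) + 16) and quantile-normalized over the 6 arrays of day 1. The first 57 rows of the table, which hold the array controls on this day, were left out, and the 300 rows with the highest mean over the 3 sham arrays were taken from the other 15866. They make up 1.89% of those rows, and all 300 were measured on all 6 arrays with no filter on low values. A row of the table is 1 probe set, a group of short oligonucleotides that together measure a transcript. The names deposited with the rows do not belong to the values of this day, so no gene is named and no protein or promoter is shown. A row is called by its rank in sham liver, rank 1 being the brightest, with its place in the table where it helps to find it.

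The study measured total RNA of whole liver from Rattus norvegicus on 24 arrays, with burn and sham groups of 3 arrays each on days 1, 2, 4 and 7. The values used here come from the sham and burn groups of day 1. The labels do not give the rats' strain, age or sex, how the burn was made, what sham rats underwent or whether each array is a separate animal. The p-values measure only the spread between arrays, which may be technical. The titles mark 3 arrays of day 1 as burn, but the descriptions of burn replicates 1 and 3 speak of a sham control. Titles were followed, and results are also given for burn replicate 2 alone, which leaves 1 burn array and no test of its spread.

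Hepatocytes fill most of the liver and devote much of their RNA to a small number of very abundant messages. These encode mainly secreted plasma proteins such as albumin, apolipoproteins and clotting factors, and enzymes of metabolism and detoxification. After injury the liver makes more of some plasma proteins, the positive acute-phase proteins, and less of others, the negative ones, so the abundant class is where large changes in the liver's output are looked for. This is background: the rows cannot be assigned to any of these proteins, and the labelled tissue could not be checked against liver markers. In whole liver a smaller number of cells of a type and less RNA per cell cannot be told apart.

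The deposited values are linear signals, scaled by the authors so that each array of day 1 had a mean of 500.2 once the lowest and highest 2% were left out. Median signal ran from 197 to 230 on the 6 arrays. Sham replicate 1 stood apart at the bright end: its highest signal was 31500, against 45870 and 57760 on sham replicates 2 and 3 and 59630 to 63440 on the burn arrays. The 57 control rows moved the same way. They summed to 131500 on sham replicate 1, to 183600 and 187400 on sham replicates 2 and 3 and to 204900 to 219200 on the burn arrays. Shares of signal, the overlap counts and the differences of the 10 brightest rows are therefore also given without sham replicate 1.

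The abundant rows were separated from the rest by no gap. Their sham means ran from 15.63 log2 units at rank 1 to 12.77 at rank 300. Just inside the limit, rank 299 had a sham mean of 12.78 ± 0.06 (SD, n = 3) and rank 300 one of 12.77 ± 0.19 (SD, n = 3). Just outside it, rank 301 had 12.77 ± 0.13 and rank 302 had 12.76 ± 0.04 (SD, n = 3 each). The order around the limit thus rests on differences smaller than the spread between arrays. Each sham array by itself placed 284 or 285 of the 300 among its own 300 brightest rows, and 261 rows were in that class on all 3 sham arrays.

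A small class of rows held a large part of all signal. In sham liver the 300 rows held 31.5%, 36.8% and 36.7% of the summed deposited signal of their array (replicates 1 to 3), and in burned liver 36.8%, 37.7% and 36.6%. Sham replicate 1 was the only low array, and the other 5 lay within 36.6% to 37.7% with the groups mixed. Sham averaged 35.0 ± 3.0% and burn 37.0 ± 0.62% (SD, n = 3 each), and the difference of 2.01 percentage points was smaller than the sham SD. Without sham replicate 1 it was 0.27 points, and for burn replicate 2 alone against all sham arrays it was 2.7 points. Since the sham arrays chose the rows, no test was made.

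The signal was also concentrated within the class. The 10 brightest rows alone held 2.49%, 3.21% and 3.80% of signal on the sham arrays and 3.89%, 3.85% and 3.80% on the burn arrays. The 50 brightest held 9.70%, 12.2% and 13.6% in sham and 14.3%, 14.4% and 13.9% in burn, and here every burn array lay above every sham array. The difference in means went from 0.68 to 0.34 points for the 10 brightest and from 2.36 to 1.30 for the 50 brightest without sham replicate 1. Rows ranked 301 to 600 held 12.1% to 13.2% in sham and 12.5% to 13.3% in burn, so that the class of the same size just below carried a much smaller share.

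**Figure D1:**
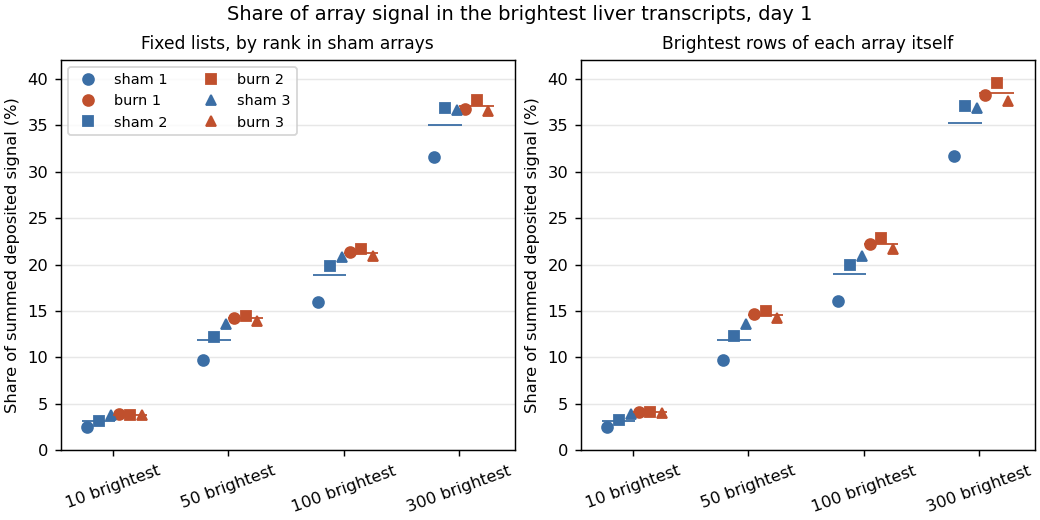
Share of the summed deposited signal (%, vertical axis) on each of the 6 arrays of day 1, for lists ranked in the sham arrays (left) and for the brightest rows of each array itself (right). Each point is 1 array, blue for sham and orange for burn, and the lines are the means of 3 arrays; sham replicate 1 is the lowest point in every list, from 2.49% for the 10 brightest to 31.5% for the 300 brightest on the left.

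The share held by whichever rows were brightest on an array does not use the rule. Each array's own 300 brightest rows held 31.7%, 37.0% and 36.8% of signal in sham and 38.2%, 39.6% and 37.6% in burn. All 3 burn arrays were above all 3 sham arrays, with a mean difference of 3.27 points (exact permutation p = 0.1, two-sided, the smallest p that 3 arrays against 3 can give; adjusted over 4 list lengths 0.1). The groups were also apart for the 10 brightest, at 3.20 ± 0.68% for sham and 4.09 ± 0.05% for burn (SD, n = 3 each), with the same exact permutation p of 0.1. Without sham replicate 1 the difference for 300 rows was 1.52 points, with burn still above both sham arrays (exact permutation p = 0.2), and that for 10 rows went from 0.89 to 0.55 points. The control rows, given above, were higher on the burn arrays too, and their part in this result was not tested. With burn replicate 2 alone the difference was 4.36 points.

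The brightest transcripts were nearly the same in both groups. By burn mean, 251 of the 300 rows were again among the 300 brightest, 212 were in that class on every one of the 6 arrays, and 82 of the 100 brightest in sham were among the 100 brightest in burn. Rank 1, at place 580 in the table, read 15.57, 15.67 and 15.67 log2 units in sham and 15.67 on each burn array. It was the brightest row in both groups. Rank 3, at place 4232, read 15.54 on all sham arrays and 15.57 on all burn arrays, where it became the second brightest.

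Quantile normalization gives the rows at the top of each array 1 shared set of values, so these rows could move only by changing places. The deposited signals show what lies beneath. Rank 1 had signals of 30733, 45866 and 57764 on the sham arrays and of 63439, 62464 and 59629 on the burn arrays. Rank 2, at place 1209, had 31496, 42051 and 53390 in sham and 55194, 53740 and 54694 in burn. In both rows sham replicate 1 was the lowest array and sham replicate 3 lay closest to burn.

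The normalized differences of the 10 brightest rows, burn minus sham, were small, from -0.27 ± 0.15 (SE) for rank 7 to 0.08 ± 0.14 (SE) for rank 10. None passed limma's test (adjusted p 0.545 to 0.955). Without sham replicate 1 they ran from -0.32 (rank 7) to 0.06 (rank 10). Rank 7, at place 4048, stood at 15.20, 15.32 and 15.37 in sham and at 15.04, 15.00 and 15.05 in burn, without overlap. Rank 4 and rank 9 were also lower on every burn array, by 0.14 ± 0.14 (SE) and 0.17 ± 0.14 (SE). These directions depended on the scaling. On values as deposited, all 10 rows had a higher mean in burn, by 0.15 (rank 7) to 0.51 (rank 1), and with array medians centred by 0.12 to 0.48. Sham replicate 1 had the lowest deposited signal in each of the 10 rows. Rank 7 had signals of 25375, 36257 and 44885 in sham and of 37873, 40101 and 37365 in burn. Its burn arrays thus lay between sham replicates 2 and 3. Differences without sham replicate 1 were not taken on deposited values, so its part in these directions was not tested.

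Many of the 300 rows were apart between burn and sham. In 140 of the 300 rows (46.7%) every burn array lay on the same side of every sham array, without overlap, against 18.7% of all 15866 rows. Of these, 54 were higher in burn (18%, against 9.59% of all rows) and 86 were lower (28.7%, against 9.15%). The median difference over the 300 rows was -0.05 log2 units, against 0.01 over all rows, and 161 of the 300 differed by less than 0.25. Differences ran from -1.49 to 1.01.

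Choosing rows for being high in sham favours rows that are lower in burn, so the surplus of lower rows is no finding. When the 300 brightest rows were chosen by the mean of all 6 arrays, which favours neither group, 140 again did not overlap, now 72 higher and 68 lower, with a median difference of 0.002. Chosen by burn mean, 136 did not overlap, 87 higher and 49 lower. The shares of all rows beside both lists are 9.59% higher and 9.15% lower. With rows chosen on 1 sham array and compared only with the other sham arrays, 165 to 172 did not overlap, against 27.7% to 30.5% of all rows with 2 sham arrays. There 62 to 80 were higher and 92 to 103 lower. The share of all rows in each direction was not taken for these comparisons, so these counts are not read as a surplus.

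The split of directions also turned with the scaling. Quantile normalization gave 38.6% higher among rows without overlap. Values as deposited gave 96 higher and 58 lower, or 62.3% higher (all rows: 9.05% higher and 8.80% lower). On that scale the median signal of the 300 rows was 9746 on sham replicate 1 and 11070 to 12210 on the other arrays. Counts without sham replicate 1 were taken only after quantile normalization, and its part in this split was not tested. Centring array medians gave 51 higher and 50 lower (all rows: 7.30% and 9.70%), or 50.5% higher. Under all 3 scalings 31 of the 300 rows were higher in burn without overlap and 46 lower, 10.3% and 15.3%, against 5.91% and 6.84% of all rows. None of the 300 that was apart after quantile normalization was apart in the opposite direction under either of the other scalings.

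The share of rows without overlap was not particular to the 300. It was 45.0% among ranks 301 to 600 and 38% among ranks 601 to 1000, and fell to 13.3% among ranks 5001 to 15866. Within the 300 it was 40% among ranks 1 to 10, 24.0% among the 50 brightest and 51.2% among the other 250. The spread between arrays was smaller in bright rows: the median SD of a row was 0.13 in sham and 0.10 in burn for the 300, 0.16 and 0.12 for ranks 301 to 600, and 0.25 in both groups over all rows. Ranks 11 to 50 had median SDs of 0.115 and 0.0741 and a median absolute difference of 0.105, with 20% of rows apart. Ranks 201 to 300 had median SDs of 0.134 and 0.12 and a median absolute difference of 0.274, with 52% apart. How spread and size of difference each bear on the overlap was not tested. The median size of the difference, regardless of sign, was 0.09 among ranks 1 to 10, 0.27 among ranks 201 to 300, 0.19 among ranks 2001 to 5000 and 0.25 among ranks 5001 to 15866. Without sham replicate 1, 170 of the 300 rows did not overlap against 27.7% of all rows; 74 were higher (14.2% of all rows) and 96 lower (13.5% of all rows).

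**Figure D2:**
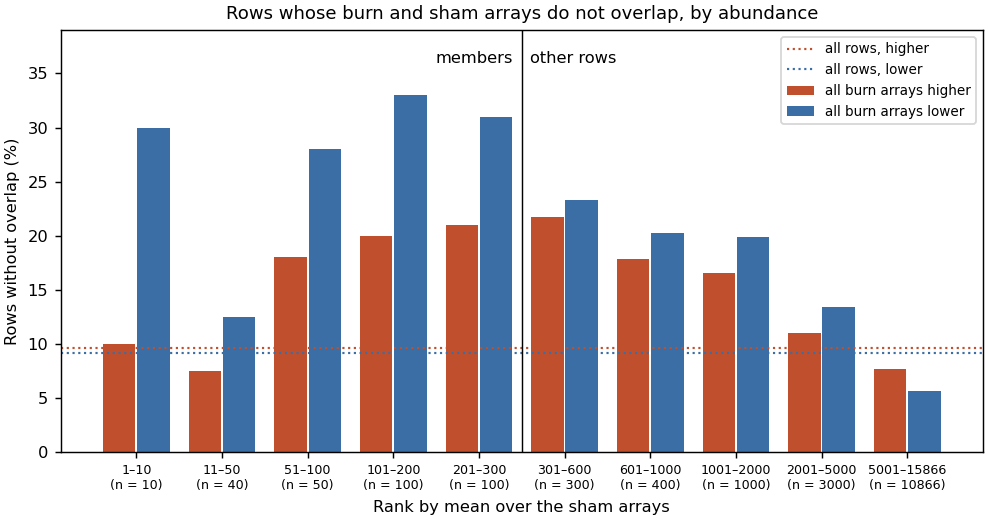
Percent of rows (vertical axis) whose 3 burn arrays all lay above (orange) or all below (blue) the 3 sham arrays, by class of rank in sham liver (horizontal axis, number of rows in brackets), with dotted lines for all 15866 rows. Ranks 101 to 200 show 20% higher and 33% lower, and the bars shrink towards 7.69% and 5.65% among the dimmest rows.

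For burn replicate 2 alone, normalized with the sham arrays, 79 of the 300 rows lay above all sham arrays (26.3%, against 28.4% of all rows) and 131 below (43.7%, against 26.8%). Its median difference was -0.06 over the 300 and 0.02 over all rows. Across the 300 rows this array correlated at 0.964 with burn replicate 1 and 0.937 with burn replicate 3, the arrays described as sham controls, and at 0.800 to 0.855 with the sham arrays. Across all rows it correlated about equally with all arrays: at 0.946 and 0.945 with burn replicates 1 and 3 and at 0.940, 0.947 and 0.939 with sham replicates 1 to 3. Across the rows chosen by the mean of all 6 arrays it correlated at 0.957 and 0.929 with burn replicates 1 and 3. With the sham arrays it correlated there at 0.720 to 0.822. The correlations thus depended on the rows used and do not settle the conflict between titles and descriptions.

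Arrays were also compared across the 300 rows. Arrays of sham correlated with each other at 0.906 to 0.938, arrays of burn at 0.937 to 0.964, and arrays of different groups at 0.800 to 0.877. Across all rows the ranges were 0.950 to 0.956, 0.945 to 0.950 and 0.937 to 0.947. The lists chosen by the mean of all 6 arrays gave 0.883 to 0.946, 0.929 to 0.957 and 0.720 to 0.868. Across ranks 301 to 600, sham arrays correlated at 0.214 to 0.473, burn arrays at 0.837 to 0.884 and arrays of different groups at 0.207 to 0.474. That window was cut on the sham mean alone, from 11.89 to 12.77, which limits the sham levels and not the burn levels. The sham and burn values there cannot be compared for that reason. These correlations are across rows, which share their array and its scaling. The 300 rows were chosen on the sham arrays, and a list that spans a narrow range of levels gives lower values than the whole table, so the ranges are a description.

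**Figure D3:**
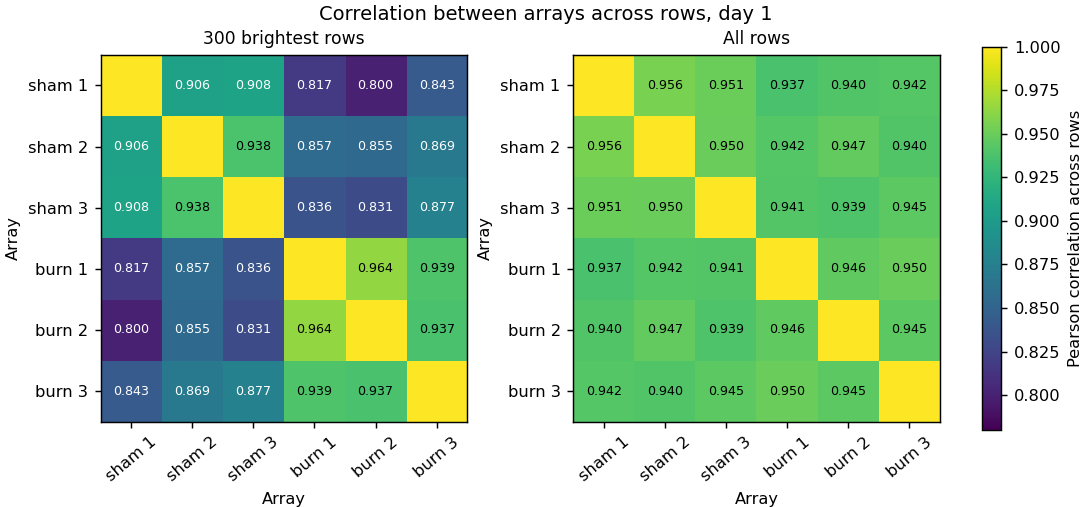
Pearson correlation between each pair of the 6 arrays of day 1 (both axes), across the 300 brightest rows (left) and all 15866 rows (right); the colour scale is shared and starts at 0.78. On the left the pairs of a burn and a sham array read 0.800 to 0.877 and pairs within a group 0.906 to 0.964, while on the right all pairs lie between 0.937 and 0.956.

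No row of the table passed limma at an adjusted p under 0.05 (0% of 15866 rows), and none of the 300. At an unadjusted p under 0.05, limma gave 1790 rows (11.3%). Among the 300 it gave 71, 19 higher in burn (against 5.41% of all rows) and 52 lower (against 5.87%). With the intensity trend and robust variance, limma called 229 rows of the table (1.44%) and 34 of the 300, 11 higher (0.775% of all rows) and 23 lower (0.668% of all rows). That setting lets the assumed spread fall with brightness. The surplus of lower rows goes with choosing rows by sham level and is no finding here either. Rows chosen by the mean of all 6 arrays gave 28 higher and 36 lower at an unadjusted p under 0.05, and 17 and 13 with the trend. Rows chosen by burn mean gave 39 higher and 19 lower, and 26 and 5 with the trend. Ranks 301 to 600 had 71 rows at an unadjusted p under 0.05 and 34 called with the trend, the same numbers as the 300 brightest.

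**Figure D4:**
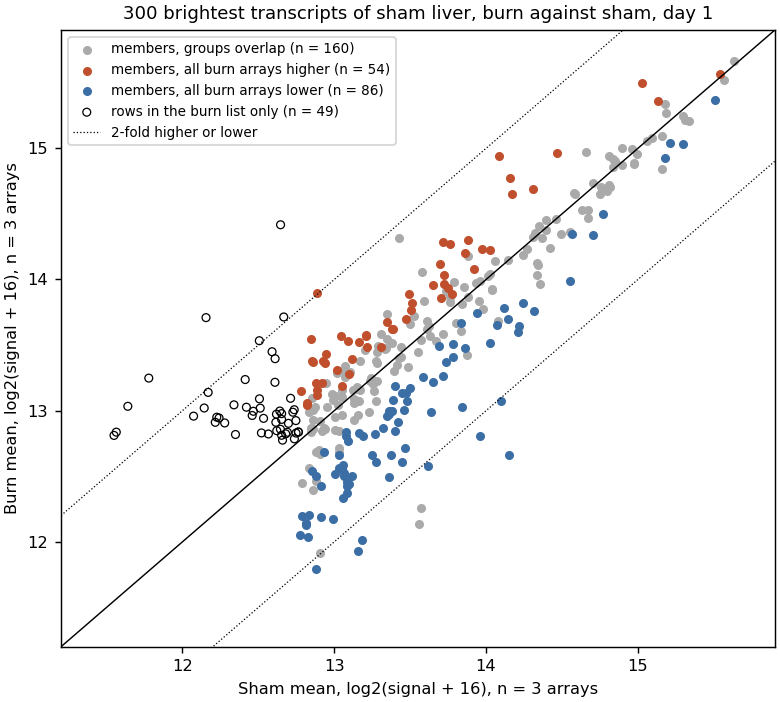
Mean log2(signal + 16) in burn (vertical) against sham (horizontal), 3 arrays each, for the 300 brightest rows of sham liver, coloured by whether the groups overlap, and for the 49 rows (open circles) that entered the 300 brightest in burn. The solid line marks equal levels and the dotted lines a 2-fold difference; the cloud is narrow at the top and widens downwards, and the lowest differences reach -1.49.

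Among rows lower in burn, rank 69 stood out. At place 3552, it read 14.04, 14.11 and 14.29 in sham and 12.53, 12.56 and 12.89 in burn. The groups were far apart, with the lowest sham array more than 1 log2 unit above the highest burn array. Its deposited signals were 13594, 18968 and 19723 in sham and 5959, 6354 and 7580 in burn, again without overlap. The difference was -1.49 ± 0.17 (SE), 2.81-fold lower. Its limma adjusted p of 0.0742 was the smallest among the 300. Over the other settings the difference ran from -1.60 to -1.38 and the adjusted p from 0.0019 to 0.277. Burn replicate 2 alone gave -1.57. The row went from rank 69 in sham to rank 333 in burn.

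A further 7 of the 8 largest differences of this direction were between 1.83-fold and 2.35-fold, with limma adjusted p of 0.157 to 0.249. Rank 205, at place 4728, read 13.34, 13.05 and 13.08 in sham and 11.36, 12.05 and 12.36 in burn. Its difference was -1.23 ± 0.28 (SE), and the burn arrays spread widely among themselves. Rank 272, at place 961, read 12.97, 12.84 and 12.84 in sham and 11.66, 11.39 and 12.34 in burn. Its burn rank of 645 was the lowest of the 300, with a difference of -1.09 ± 0.26 (SE).

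Rank 198 read 13.43, 13.01 and 13.10 in sham and 11.76, 12.53 and 11.74 in burn, a difference of -1.17 ± 0.26 (SE). Here burn replicate 2 was the highest burn array, and alone it gave only -0.65. Rank 86 read 13.81, 13.83 and 14.25 in sham and 13.15, 12.54 and 12.71 in burn, a difference of -1.16 ± 0.23 (SE). Its sham replicate 3 was the high array, while the groups stayed apart.

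Rank 128 and rank 73 were lower by 2.06-fold and 2.03-fold, with burn replicate 1 the lowest and burn replicate 3 the highest of the burn arrays in both. Rank 73 read 14.00, 14.32 and 13.96 in sham and 12.79, 13.09 and 13.35 in burn. Rank 167 read 13.30, 13.45 and 13.33 in sham and 12.29, 12.49 and 12.69 in burn, a difference of -0.87 ± 0.17 (SE). Its SDs were 0.08 in sham and 0.20 in burn, the latter above the median burn SD of 0.10 of the 300 rows. In 7 of the 300 rows the groups did not overlap and burn was at least 2-fold lower (2.33%, against 1.29% of all rows).

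Only rank 271 was at least 2-fold higher without overlap (1 of 300, 0.333%, against 1.01% of all rows). This imbalance goes with choosing rows by sham level: rows chosen by all 6 arrays gave 5 such rows higher and 4 lower, and rows chosen by burn mean 9 and 2. At place 4412, it read 13.12, 12.47 and 13.07 in sham and 14.03, 13.94 and 13.72 in burn. It was higher by 1.01 ± 0.22 (SE; limma adjusted p = 0.218). It passed from rank 271 in sham to rank 93 in burn.

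Rank 74 had the highest burn mean of the 8 rows with the largest differences upward. At place 1523, it read 13.89, 14.19 and 14.19 in sham and 14.96, 15.04 and 14.83 in burn, where its rank was 23. It was 1.81-fold higher, by 0.85 ± 0.17 (SE; limma adjusted p = 0.157). Its deposited signals were 12550, 20028 and 18544 in sham and 35675, 40656 and 31643 in burn. Even the highest sham array was well below the lowest burn array on that scale too.

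Rank 287 read 12.59, 13.04 and 12.90 in sham and 13.52, 13.75 and 13.37 in burn, a difference of 0.70 ± 0.19 (SE). Rank 68 read 13.87, 14.30 and 14.30 in sham and 14.81, 14.81 and 14.71 in burn, a difference of 0.62 ± 0.18 (SE), with sham replicate 1 the low array. Rank 118 was tight in both groups, at 13.67, 13.71 and 13.76 in sham and 14.30, 14.36 and 14.21 in burn, and differed by 0.58 ± 0.14 (SE). Ranks 284, 237 and 282 were higher by 1.43-fold to 1.44-fold. The 8 largest differences upward had limma adjusted p of 0.157 to 0.314, and all 8, like all 8 downward, kept their groups apart under all 3 scalings.

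**Figure D5:**
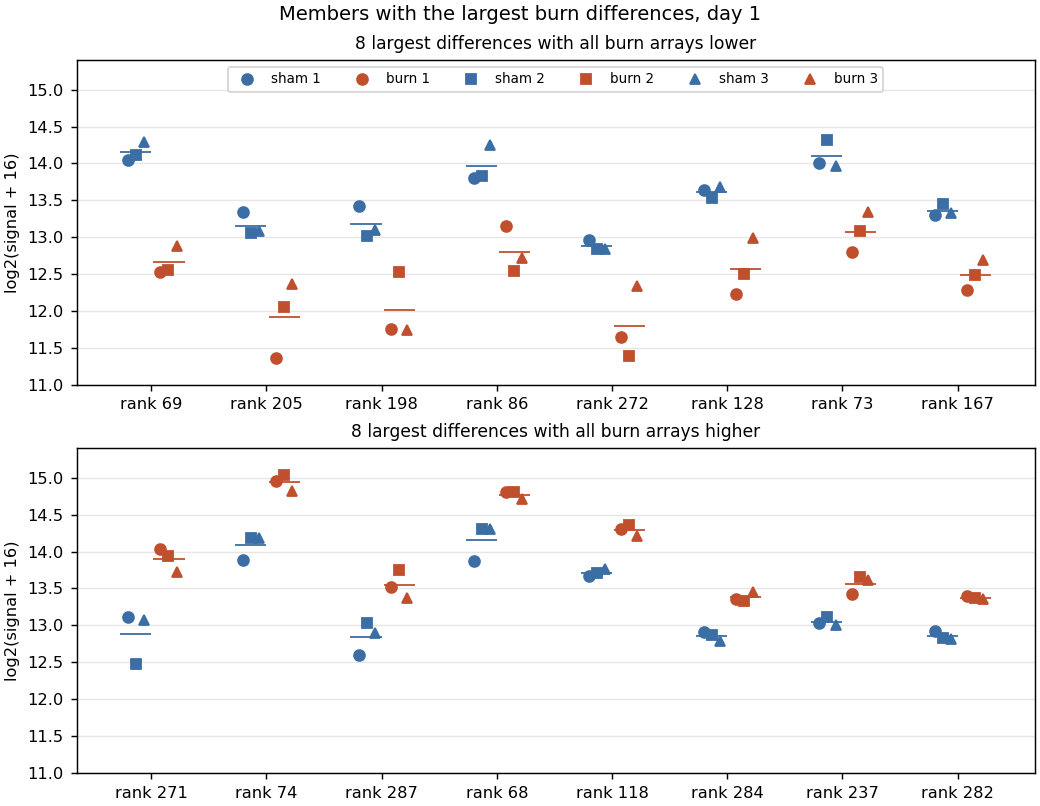
Normalized log2(signal + 16) of each array (points) for the 8 rows with the largest differences among those lower in burn (top) and higher in burn (bottom), with blue for sham, orange for burn and lines for the means of 3 arrays. Rank 69 goes from a mean of 14.15 to 12.66, and rank 271 from 12.89 to 13.90; no orange point crosses a blue one within a row.

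The rows apart in each direction held different amounts of signal. The 54 rows higher in burn without overlap held 5.08%, 5.94% and 5.80% of deposited signal in sham and 7.59%, 8.04% and 7.42% in burn. The 86 rows lower in burn held 8.33%, 9.56% and 9.41% in sham and 6.87%, 7.04% and 7.21% in burn. The first set held 2.08 points more in burn and the second differed by -2.06 points; without sham replicate 1 these were 1.81 and -2.45. The sets were split on these same arrays after quantile normalization by the difference itself. Neither their directions nor the sizes of their changes are therefore a result, and the values are a description. The 160 rows that overlapped held 18.1%, 21.3% and 21.5% in sham and 22.3%, 22.6% and 21.9% in burn, a difference of 1.99 points that was 0.91 without sham replicate 1.

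A few abundant rows varied widely between arrays of a group. An SD over 0.5 was found in 4 of the 300 rows in sham and in 4 in burn, against 3030 and 3322 of all rows. Rank 154, at place 5763, read 11.30 on sham replicate 1 and 14.50 and 14.49 on the other sham arrays, with 13.99, 14.71 and 14.25 in burn. The low array made its mean difference 0.89 ± 0.85 (SE), and without it the difference was -0.19. Rank 136, at place 2374, read 13.56, 13.21 and 13.92 in sham and 11.38, 10.94 and 14.09 in burn. Burn replicate 3 was above every sham array there, while the other burn arrays were more than 1 log2 unit below them.

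Rank 135 read 14.08, 13.83 and 12.79 in sham and 13.09, 12.42 and 11.27 in burn, where replicate 3 was the lowest array of each group. The groups overlapped, and the difference was -1.31 ± 0.53 (SE; limma adjusted p = 0.427). Rank 144 read 12.96, 14.15 and 13.35 in sham and 13.43, 13.42 and 13.14 in burn, and its sign depended on sham replicate 2, without which the difference was 0.18. Rank 265 read 13.06, 12.42 and 13.24 in sham and 11.75, 11.46 and 12.53 in burn, where 1 burn array lay above the lowest sham array.

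In burned liver 49 rows left the class and 49 others entered it. Which way these rows differed is fixed by how they were picked. The picking also favours large differences and rows that are apart. The shares of all rows below are therefore given for scale and are no comparison. Of those that left, 37 were apart without overlap (all rows lower: 9.15%), with a median difference of -0.63, and of those that entered, 33 (all rows higher: 9.59%), with a median of 0.50. Entrants came from close by, at a median sham rank of 345 and no further than rank 765. Only 1 of the 300 ranked below 600 in burn. The brightest entrant, rank 329 at place 5793, read 12.60, 12.68 and 12.66 in sham and 14.37, 14.45 and 14.43 in burn. Both groups were very tight, and the row was 3.41-fold higher, by 1.77 ± 0.14 (SE), with a limma adjusted p of 0.0576. It stood at rank 49 in burn, and its difference was larger than that of any of the 300 rows.

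Rank 322, at place 6022, entered at 12.64, 12.73 and 12.63 in sham against 13.82, 13.69 and 13.63 in burn, a 2.07-fold difference (limma adjusted p = 0.0857). Rank 496, at place 5777, read 9.99, 13.24 and 13.24 in sham and 13.28, 14.56 and 13.29 in burn. Sham replicate 1 was low there, as it was in rank 154, and without it the difference went from 1.55 to 0.49.

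The abundant rows were also close together in the table. Of the 300, 276 (92.0%) lay in the first 7000 rows, which hold 43.8% of all rows, and 32 (10.7%) were followed directly by another of the 300, against the 1.89% of rows that are members. In 21 of these 32 neighbouring pairs the burn differences had the same sign, and in 5 both rows were apart in the same direction. Among the 300, 129 differences were positive and 171 negative, and 18% were apart higher and 28.7% lower. Unrelated rows can therefore share a direction, and whether neighbours did so more often was not tested. Why bright rows stand together was not tested.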

How the data were processed

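Whole-liver RNA was measured on 24 arrays, of which the 6 of day 1 were used. The deposited table holds 1 linear intensity per probe set and array for 15923 rows; the software behind it was not given in the sources used here. Judged from the deposited values, the authors scaled the intensity per array. Groups come from the sample titles. From the deposited intensity, log2(max(signal, 0) + 16) was quantile-normalized and fitted with limma 3.58.1 (lmFit, eBayes, 1 mean per group, 4 residual degrees of freedom) under R 4.3.3 on all 15866 rows, with Benjamini-Hochberg adjustment over them. Signal shares use the deposited linear intensity. Differences are on the log2(signal + 16) scale, and the number of arrays limits the precision. Whether the brightest spots were saturated is not given. Overlap means that the ranges of the 3 burn and 3 sham arrays touch.

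Rows named are the 10 brightest, the 8 largest differences each way without overlap, the 5 smallest limma p, the 3 largest SDs per group, the rows at the limit and the 3 brightest in burn outside the list. The list and these rules were chosen with earlier results of these data known. The fit was tested on simulated data. Alternatives were other scalings, pseudocounts of 1 and 64, a filter on dim rows, limma with intensity trend or array weights, a replicate block, other ways to choose the rows, and leaving out arrays. The replicate numbers were not taken as pairs.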

Additional observations from a re-analysis of the deposited data

How the results depend on the processing

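In the fit of all rows limma called 0 of 15866 rows and 0 of the 300. It called 4 rows with values as deposited, 3 with array medians centred, 4 with array weights, 61 with a pseudocount of 64, 84 without the dimmest rows and 229 with an intensity trend and robust variance. Of the 300 it called 1, 1 and 34 with the pseudocount of 64, without the dimmest rows and with the trend. Leaving out single arrays gave 0 to 0 calls in both. The replicate block gave 0 calls (smallest limma adjusted p 0.24). Deviations of same-numbered arrays correlated at -0.0392, 0.103 and 0.0671, and for 2 of 3 sham arrays the best match was the burn array of their own number.

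The median difference over the 300 rows (-0.0517) was 0.0993 with values as deposited, 0.0622 with array medians centred, 0.0642 for rows chosen by burn mean, 0.00213 for rows chosen by all 6 arrays and -0.0188 for a list of 1000. With an array left out it ran from -0.0594 to -0.0476. The count without overlap (140 of 300) was 35 in a list of 100 and 427 in a list of 1000. All rows gave 18.7% beside each of these lists. With an array left out, 155 to 170 of the 300 did not overlap, where fewer arrays overlap less often by construction. The 170 came without sham replicate 1, where 27.7% of all rows did not overlap. The share held by the 300 differed by 4.43 points for rows chosen by burn mean and by -1.28 on normalized signal, where each array has the same values, and with an array left out by 0.274 (without sham replicate 1) to 2.91. The share of each array's own 300 brightest differed by 1.52 (without sham replicate 1) to 4.19 points.

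Single rows were given 304 values under other settings and 228 with an array left out. The adjusted p newly passed in 25 and 0 of these. The sign changed for ranks 2, 4, 5, 6, 7, 8 and 9 as deposited (0.399, 0.334, 0.332, 0.369, 0.153, 0.396 and 0.236) and with array medians centred (0.362, 0.297, 0.294, 0.332, 0.116, 0.358 and 0.199), for rank 154 without sham replicate 1 (-0.189, its range with an array left out reaching 1.41) and for rank 144 without sham replicate 2 (0.177, its range starting at -0.439). The causes of these changes were not tested.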

Other observations

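The share of signal held by an array's own 300 brightest rows could also be read on the 18 arrays of the later days, since it needs no match between rows. The 57 rows named as array controls were left out there. It was 32.3 ± 1.2% in sham and 34.0 ± 0.57% in burn on day 2, 33.7 ± 1.6% and 33.1 ± 0.56% on day 4, and 34.5 ± 0.50% and 34.1 ± 0.46% on day 7 (SD, n = 3 each). Burn lay above sham without overlap on day 2 (33.6% to 34.7% against 31.0% to 33.1%), and the ranges overlapped on days 4 and 7. The description of burn replicate 1 of day 2, the lowest burn array there at 33.6%, names a sham control against its title. All these arrays lay below the 36.8% to 39.6% of day 1 without sham replicate 1, whose own value was 31.7%. Differences between days were not tested.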
